A study of Mus musculus with 9 samples.

Results

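The Nme and nucleolar growth genes followed here are 10 genes, chosen by name: Nme1, Nme2, Npm1, Npm3, Ncl, Fbl, Dkc1, Nolc1, Gnl3 and Myc. They were picked because Nme2 and Npm1 stood among the largest positive differences of the tumour fraction, so their values there are given as a description, with no test. All 10 were measured, by 18 of the 41174 probes on the array and 27 of its 43379 spots that are not controls, and they are 10 of the 14253 genes tested. Every one of the 18 probes passed the filter on dim probes, some of them only through their signal in the tumour fraction.

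The series profiled 3 female Balb/c athymic mice (832, 833 and 834), each sampled as day 10 TIC, day 10 Blood and day 0 Blood. All 3 carried Hepa1-6 cells, a cultured mouse hepatoma line, placed under the skin after the day 0 blood had been drawn, so that every day 10 sample comes from a mouse with a tumour. The TIC samples are a fraction of ground tumour enriched in infiltrating inflammatory cells; no purity is given, and athymic mice lack most T cells. RNA of each sample was labelled with Cy5 and set on its array against Cy3-labelled blood RNA of an untreated female mouse of another strain, C57Bl/6, which served all 9 arrays. Values are log2 ratios of Cy5 over Cy3 after loess normalization, or differences between group means of these ratios with the SE of a limma fit to all 9 arrays. In such bulk samples a change in the number of cells of a type and a change in the RNA per cell cannot be told apart.

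The nucleolus is where ribosomal RNA is transcribed by RNA polymerase I, modified and cut, and joined with ribosomal proteins into pre-ribosomal particles. Nucleophosmin, nucleolin and fibrillarin are among its most abundant proteins, and dividing cells, tumour cells among them, have large nucleoli. Myc, a transcription factor that pairs with Max on the DNA motif CACGTG, is known to raise the transcription of many genes of this pathway, while Nme1 and Nme2 encode nucleoside diphosphate kinases, which pass phosphate from ATP to other nucleoside diphosphates and so keep up the supply of GTP, CTP and UTP.

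Nme1 and Nme2 are neighbours on mouse chromosome 11. In the files' coordinates (build mm8) the Nme1 probe lies at chr11:93775246-93775305 and the Nme2 probe at chr11:93765977-93766036, 9209 bases apart. The windows around their start sites are shown because the members were asked for the Myc motif and because this pair lies side by side yet differed in size in the tumour fraction. Each window runs from 250 bases before to 50 bases after a start site (RefSeq, build GRCm38.p6, minus strand), and capitals mark CACGTG, whose letters are the same on the opposite strand.
Nme1, chr11:93968223-93968522: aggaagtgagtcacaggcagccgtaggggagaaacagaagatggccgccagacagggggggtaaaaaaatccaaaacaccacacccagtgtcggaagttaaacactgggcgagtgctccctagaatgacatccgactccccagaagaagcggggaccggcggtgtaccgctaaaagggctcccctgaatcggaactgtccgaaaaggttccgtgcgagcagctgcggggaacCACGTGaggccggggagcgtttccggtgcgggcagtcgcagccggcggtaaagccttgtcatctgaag
Nme1, chr11:93967976-93968275: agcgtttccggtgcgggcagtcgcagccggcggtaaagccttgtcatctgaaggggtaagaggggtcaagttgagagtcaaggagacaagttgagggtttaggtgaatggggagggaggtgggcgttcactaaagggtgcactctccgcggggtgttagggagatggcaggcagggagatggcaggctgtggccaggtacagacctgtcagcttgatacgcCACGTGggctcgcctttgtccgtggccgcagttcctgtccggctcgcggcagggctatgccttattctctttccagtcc
Nme2, chr11:93956207-93956506: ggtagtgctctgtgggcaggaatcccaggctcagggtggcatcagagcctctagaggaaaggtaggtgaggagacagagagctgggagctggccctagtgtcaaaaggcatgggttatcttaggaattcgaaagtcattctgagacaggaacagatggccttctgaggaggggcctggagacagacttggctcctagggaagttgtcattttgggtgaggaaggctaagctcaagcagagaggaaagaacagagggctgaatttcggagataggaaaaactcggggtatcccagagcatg
Nme2, chr11:93955734-93956033: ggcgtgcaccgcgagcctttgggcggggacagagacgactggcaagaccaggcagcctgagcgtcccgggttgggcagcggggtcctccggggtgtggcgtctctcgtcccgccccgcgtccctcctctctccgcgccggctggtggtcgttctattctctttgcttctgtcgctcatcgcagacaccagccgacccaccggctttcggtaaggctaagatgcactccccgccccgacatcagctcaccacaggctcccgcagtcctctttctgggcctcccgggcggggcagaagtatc
The Nme1 windows hold the motif once each, beginning at bases -18 and -29 counted from the start site; they overlap by 53 bases, which do not contain it. Neither Nme2 window holds it, nor do the windows of Ncl, Gnl3, Npm3, Nolc1 and Dkc1. No window of Npm1, Fbl or Myc was used. Of the 7 members with a window, 1 had the motif, beside 2187 of 27025 genes in the table (8.09%) and 19 of the 89 other ribosome biogenesis genes with a window (21.3%). A match is a stretch of letters and shows no binding.

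Sample RNA was dimmest in day 10 Blood. Between 48.2% and 55.1% of spots were well above background in Cy5 on the TIC arrays, as were 14.2% to 21.0% on the day 10 Blood arrays and 24.3% to 36.9% on the day 0 Blood arrays, against 40.2% to 50.4% for the Cy3 reference over all arrays; no spot was saturated. Among the TIC arrays, mice 832 and 834 correlated across genes with r = 0.989, while mouse 833 stood apart from them with r = 0.885 and 0.896. The arrays lay on 3 slides, and no slide held both a TIC and a day 10 Blood array, so that for this pair slide and group can be parted only through the day 0 arrays. The choice of scaling matters here. With the loess ratios the median gene differed by 0.07 between TIC and day 10 Blood, and 51.0% of the 9632 called genes were higher. With each array centred on its median and no loess, the median gene differed by 1.38 and 95.7% of the called genes were higher, with the deposited log ratio by 0.85 and 63.3%, and with Cy5 alone by 0.21 and 59.7%. The directions of the 10 genes, and of the other pathway genes named by the rule given in the methods, were checked under these scalings.

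Nme2, nucleoside diphosphate kinase B, had the largest difference of the 10 genes between TIC and day 10 Blood. Its log2 ratios were 3.88, 3.59 and 3.51 in the TIC samples of mice 832, 833 and 834, against -0.83, -0.70 and -1.08 in day 10 Blood and 0.13, 0.86 and 0.33 in day 0 Blood. The 3 groups did not overlap, and each mouse had the same order, TIC above day 0 Blood above day 10 Blood. The mean difference was 4.53 ± 0.20 (SE, n = 3 arrays per group) from day 10 Blood, rank 4 from the top of all genes, and 3.22 ± 0.20 from day 0 Blood, rank 34. Npm1 came close behind, at 4.49 from day 10 Blood, and the order of the pair depended on the setting. Npm1 was the larger with the deposited ratio (5.09 against 4.80), Agilent's processed signals (4.69 against 4.41) and slide as a block (4.72 against 4.25).

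The spread lay in the sample channel. Cy5 minus background for Nme2 was 260892, 25272 and 95152 intensity units on the TIC arrays, 51.9, 81.8 and 21.1 on the day 10 Blood arrays and 463, 555 and 201 on the day 0 Blood arrays. The Cy3 reference on the same spot stayed between 819 and 1179 units on all 9 arrays. The TIC array of mouse 833 was the dimmest of its group, yet its loess ratio fell between those of the other mice. Loess compares a spot with others of like brightness, so the ratio it leaves is much smaller than the raw one; with median centring in its place the Nme2 difference between TIC and day 10 Blood was 9.41, and over all other settings it lay between 4.25 and 5.29.

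**Figure D1:**
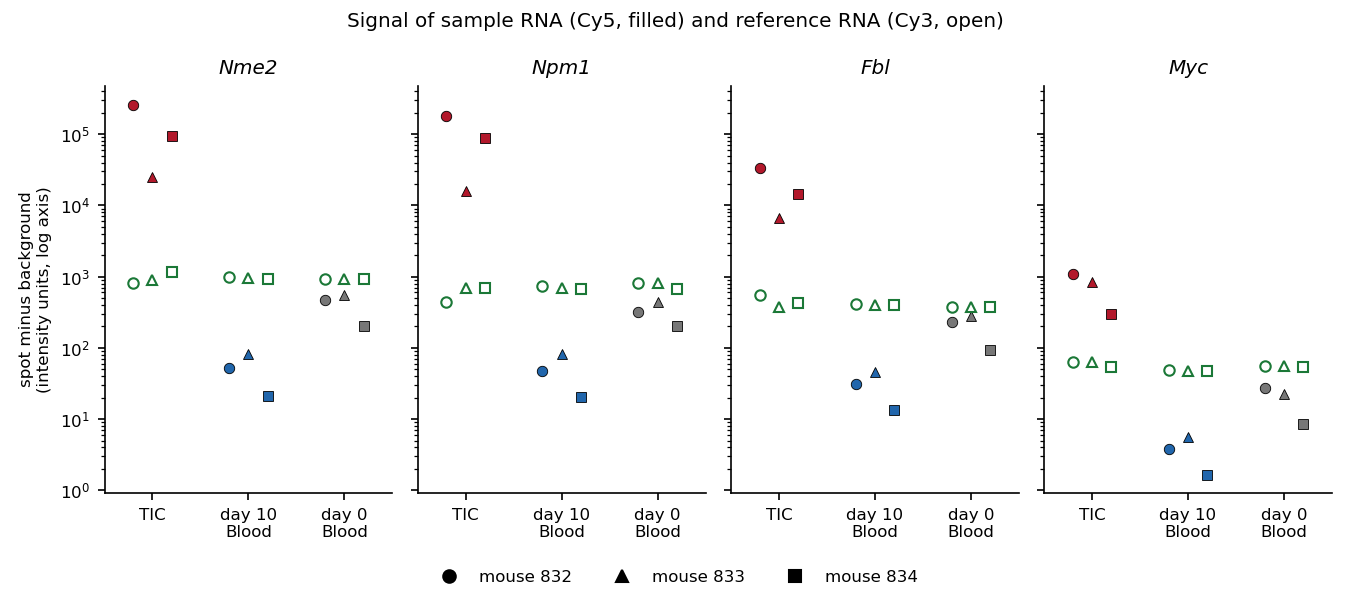
Spot signal minus local background (intensity units, log axis) for the probes used for Nme2, Npm1, Fbl and Myc on the 9 arrays, with sample RNA (Cy5) filled, the common reference RNA (Cy3) open, and marker shapes for the mice. The reference stays level from array to array, at 819 to 1179 units for Nme2, while the sample signal is highest on the TIC arrays and lowest on the day 10 Blood arrays for all 4 genes.

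Nme1, nucleoside diphosphate kinase A, the gene first described as a metastasis suppressor, was also above the bloods in TIC, with other proportions. Its log2 ratios were 2.50, 0.81 and 2.65 in TIC (mice 832, 833 and 834), against 0.04, -0.07 and -0.07 in day 10 Blood and -0.23, -0.44 and -0.03 in day 0 Blood. The TIC samples lay above all 6 blood samples, but mouse 833 was well below the other mice, and the bloods overlapped. The mean difference was 2.02 ± 0.42 from day 10 Blood (rank 536) and 2.22 ± 0.42 from day 0 Blood (rank 279). Without the TIC array of mouse 833 the first of these was 2.61. Nme1 and Nme2 are close in coding sequence, and the probes' letters were not used here, so how far either probe also takes up the other transcript was not tested.

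Among the more distant Nme and nucleophosmin genes, from a list that holds no member, 4 of 5 were higher in TIC than in day 10 Blood and 4 of 5 higher than in day 0 Blood by limma with Benjamini-Hochberg adjustment, where 34.4% and 31.7% of all genes were. No day 10 Blood array was well above background for 4 of the 5, and no day 0 Blood array for 2. All 5 were above it on every TIC array, which alone meets the filter on dim probes. Among all genes above background in TIC but on no day 10 Blood array, 49.0% were called higher. Nme4, the mitochondrial family member, differed from day 10 Blood by 0.83 ± 0.16 (limma, adjusted p = 0.00163) and Nme6 by 0.75 ± 0.20 (limma, adjusted p = 0.00931); neither stood well above background in day 10 Blood, so the true sizes are not fixed. The second Nme4 probe differed by 1.68. For Nme4 the call was lost with Agilent's processed signals, and for Nme6 with slide as a block, where it differed by 0.68. Nme3 differed by -0.12 ± 0.24 and did not pass. With slide as a block 1 of the 5 was called higher than in day 10 Blood and 1 of the 5 higher than in day 0 Blood, where 10.5% and 21.6% of all genes were.

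Npm1, nucleophosmin, a histone chaperone that shuttles pre-ribosomal particles, was measured by 2 probes, both well above background on all 9 arrays. The brighter had log2 ratios of 4.35, 3.22 and 4.20 in TIC, against -0.58, -0.34 and -0.80 in day 10 Blood and -0.23, 0.69 and 0.67 in day 0 Blood. The other had 4.33, 2.73 and 4.31 in TIC, against -0.76, -0.60 and -0.66 in day 10 Blood and -0.49, 0.25 and 0.06 in day 0 Blood. On both probes TIC lay far above the bloods, mouse 833 was the lowest of the TIC samples, and no day 10 Blood value reached the day 0 Blood values. With the brighter probe the difference was 4.49 ± 0.34 from day 10 Blood, rank 5, and 3.55 ± 0.34 from day 0 Blood, rank 18. The other probe gave 4.46 and 3.85, its values in day 0 Blood being lower in all 3 mice. Npm1 has processed pseudogenes, and how far these probes take up their transcripts was not tested.

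Npm3, a smaller nucleophosmin that binds Npm1, had log2 ratios of 2.71, 0.91 and 2.21 in TIC, against -0.28, -0.16 and -0.20 in day 10 Blood and -0.56, -0.36 and -0.27 in day 0 Blood. TIC lay above the bloods in every mouse, with mouse 833 again lowest, and the bloods overlapped. The difference was 2.16 ± 0.38 from day 10 Blood, where 1 of 3 arrays was well above background, and 2.34 ± 0.38 from day 0 Blood. With mouse and slide as blocks the first was 1.31. Npm2, the oocyte form, belongs to the list of distant family members above and differed from day 10 Blood by 0.40 ± 0.15 (limma, adjusted p = 0.0421). In that list 4 of 5 genes had no day 10 Blood array well above background, so this size is not taken as fixed.

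**Figure D2:**
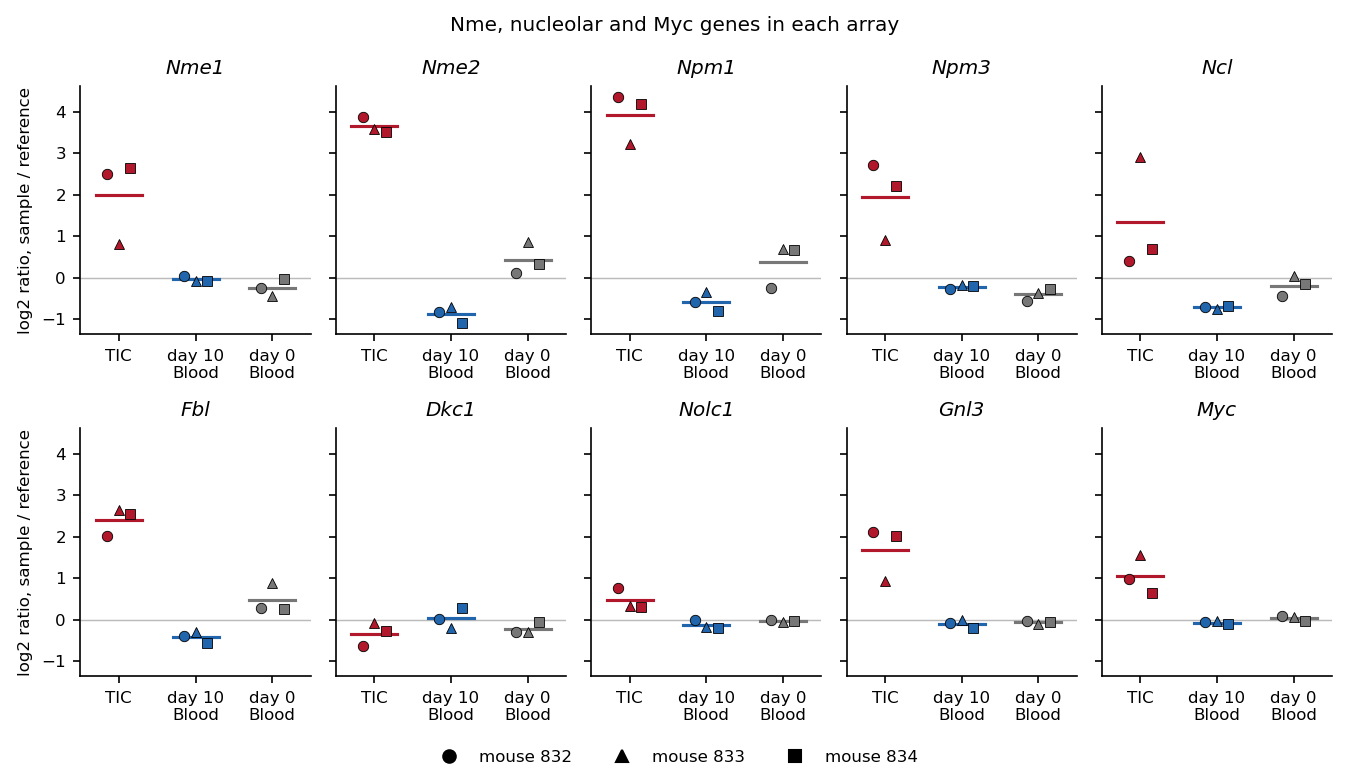
Log2 ratio of sample to reference for the probe used for each of the 10 genes, with 1 point per array, marker shapes for the mice and a bar at the group mean (n = 3 arrays per group). In 9 genes the 3 TIC values lie above all blood values, Dkc1 being the exception, and the TIC array of mouse 833 (triangle) is far below the others for Nme1 and Npm3 and far above them for Ncl.

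Fbl, fibrillarin, the methyltransferase of box C/D snoRNPs, had TIC values above both bloods in every mouse. Its log2 ratios were 2.02, 2.65 and 2.55 in TIC, against -0.37, -0.30 and -0.55 in day 10 Blood and 0.28, 0.89 and 0.27 in day 0 Blood. As with Nme2, no group overlapped another, and the order was TIC, day 0 Blood, day 10 Blood in each mouse. The difference was 2.82 ± 0.22 from day 10 Blood (rank 125) and 1.93 ± 0.22 from day 0 Blood.

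Ncl, nucleolin, which takes part in rRNA transcription and folding, was the gene on which the TIC samples disagreed most. Its brightest probe had log2 ratios of 0.41, 2.92 and 0.71 in TIC, against -0.69, -0.76 and -0.68 in day 10 Blood and -0.44, 0.04 and -0.15 in day 0 Blood. Mouse 833 stood 2.36 above the mean of the other mice, which differed by 0.30 from each other. The groups still did not overlap, and the difference was 2.05 ± 0.56 from day 10 Blood, with 2 of 3 arrays well above background there, and 1.53 ± 0.56 from day 0 Blood. Without mouse 833's TIC array these differences were 1.27 and 0.74. The difference from day 10 Blood was 1.08 as the mean of all Ncl probes, while blocks for slide and mouse together gave 3.40 and 2.30 for the brightest probe.

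The other 3 Ncl probes gave smaller differences from day 10 Blood, of 1.78 ± 0.53, 0.35 ± 0.30 and 0.12 ± 0.12. Their positions on chromosome 1 (build mm8) begin at 88182549, 88181609 and 88176112, and that of the brightest probe at 88182198. On all 4 probes the TIC sample of mouse 833 was the highest of the 9. The pair with the smallest differences failed to reach well above background on all 3 day 10 Blood arrays, with at most 8.06 units of Cy5 signal there.

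Dkc1, dyskerin, the pseudouridine synthase of box H/ACA snoRNPs and of telomerase, was the exception. Its brighter probe had log2 ratios of -0.64, -0.08 and -0.27 in TIC, against 0.02, -0.20 and 0.29 in day 10 Blood and -0.30, -0.29 and -0.06 in day 0 Blood. The groups overlapped, and the difference from day 10 Blood was -0.37 ± 0.18 with the loess ratio, 0.21 with the deposited ratio, 0.02 with slide as a block and 1.25 with median centring, so it has no settled direction. The dimmer probe went the other way, with 0.18, 0.57 and 0.24 in TIC against -0.25, -0.12 and 0.11 in day 10 Blood and 0.08, 0.03 and 0.03 in day 0 Blood. In day 10 Blood neither probe reached well above background.

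Nolc1, a chaperone of snoRNPs in the nucleolus, had the smallest positive difference. The probe used had log2 ratios of 0.78, 0.33 and 0.30 in TIC, against -0.01, -0.17 and -0.18 in day 10 Blood and 0.01, -0.05 and -0.04 in day 0 Blood. TIC lay above the bloods without overlap, by 0.50 ± 0.14 from day 0 Blood. None of the day 10 Blood arrays had it well above background, and its size depended on the processing, since the difference from day 0 Blood was 1.01 with the deposited ratio, 0.91 with Cy5 alone and 0.34 with slide as a block. The Cy3 reference of this probe was 163 units on the TIC array of mouse 833, against 36.6 to 67.3 units on the other arrays. The second Nolc1 probe differed by 0.36 from day 10 Blood and 0.30 from day 0 Blood, with no blood array well above background.

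Gnl3, nucleostemin, a nucleolar GTPase of stem and tumour cells, had log2 ratios of 2.13, 0.93 and 2.02 in TIC, against -0.08, -0.01 and -0.20 in day 10 Blood and -0.03, -0.09 and -0.05 in day 0 Blood. Mouse 833 was the lowest in TIC, and the bloods overlapped. Cy5 signal was 2239, 338 and 969 units on the TIC arrays, at most 3.84 units on the day 10 Blood arrays and 5.55 to 12.0 units on the day 0 Blood arrays. With no day 10 Blood array well above background, only the difference from day 0 Blood is given a size, 1.75 ± 0.28, and there 1 of 3 arrays measured it. That size was 3.65 with the deposited ratio and 3.08 with Agilent's processed signals.

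Myc was the only gene with repeated spots, 10 of the probe used. The mean log2 ratios of these spots were 0.99, 1.57 and 0.64 in TIC, against -0.06, -0.03 and -0.10 in day 10 Blood and 0.10, 0.08 and -0.04 in day 0 Blood. TIC lay above the bloods without overlap, with mouse 833 highest. The SD among the 10 spots, which is technical spread within an array, was 0.09, 0.29 and 0.15 on the TIC arrays of mice 832, 833 and 834. The difference from day 0 Blood was 1.02 ± 0.21, with 2 of 3 day 0 Blood arrays above background; no day 10 Blood array was. It was 1.90 with the deposited ratio and 0.59 as the mean of all Myc probes.

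A second Myc probe gave 1.14, 1.55 and 0.68 in TIC, 0.30, 0.05 and -0.07 in day 10 Blood and 0.17, 0.20 and -0.11 in day 0 Blood, much like the one above. The third went the other way, with -0.73, -0.45 and -0.49 in TIC, -0.16, 0.11 and 0.21 in day 10 Blood and -0.30, -0.46 and -0.06 in day 0 Blood. Its Cy5 signal was 58.7, 46.0 and 10.8 units on the TIC arrays and at most 8.72 units on the blood arrays. More spots stood well above background on the TIC arrays in general, as given above, so this raw order does not settle the probe's direction. The 3 probes begin within the same stretch of chromosome 15 (build mm8), at 61819627, 61819528 and 61819036.

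**Figure D3:**
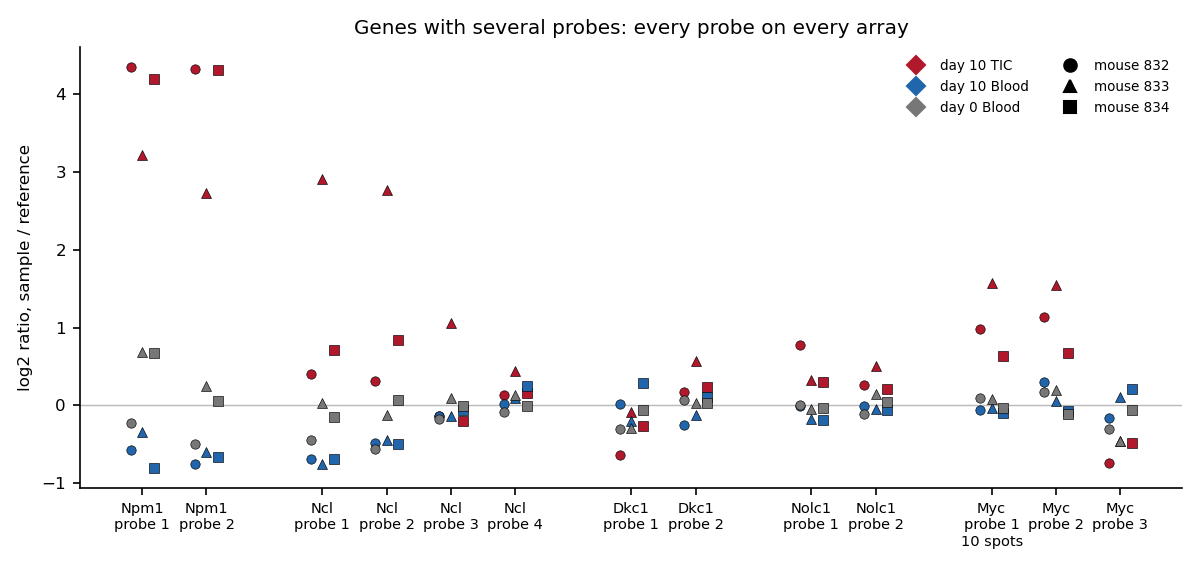
Log2 ratio of sample to reference for every probe of the 5 genes with several probes, with colours for the groups and marker shapes for the mice; probe 1 is the brightest and the one used. The Npm1 probes lie close in TIC and day 10 Blood and further apart in day 0 Blood, the Ncl probes differed by 2.05 to 0.12 between TIC and day 10 Blood, and the third Myc probe has its TIC values below 0.

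By count, 9 of the 10 genes had higher means in TIC than in day 10 Blood and the same 9 had all TIC values above all day 10 Blood values, where 36.8% of all genes lay wholly higher. Against day 0 Blood the counts were the same, where 32.7% of all genes lay wholly higher. These shares are background only, since the choice of genes used this contrast. The median difference over the 10 genes was 2.04 from day 10 Blood and 1.84 from day 0 Blood, where the median over all genes was 0.07 and 0.01. For these 9 genes both differences were above 0 in each of the 22 to 24 settings that could be run for a gene, the 9 left-out arrays and all scalings included; of single probes, the third Myc probe was the one below 0. With median centring the differences from day 10 Blood were 2.37 to 9.41 and those from day 0 Blood 2.24 to 7.48, where the median of all genes was 1.38 and 1.16.

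The TIC array of mouse 833 split the genes. It was the lowest of the 3 for Nme1, Npm1, Npm3 and Gnl3, the highest for Ncl, Fbl, Dkc1 and Myc, and between the others for Nme2 and Nolc1. Over all genes it was lowest in 45.4%, highest in 39.9% and in the middle in 14.8%, so the 4, 4 and 2 of these genes are close to the shares of the array as a whole. Its distance from the mean of the other mice was 1.77 below for Nme1 and 2.36 above for Ncl, while the median size over all genes was 0.35. The same array had the highest summed normalized Cy5 signal of hepatoma and liver markers of the TIC arrays, 69338 units against 31853 and 35477 for mice 832 and 834, but as Cy5 minus background the same markers summed lowest there, 149900 units against 438095 and 207689, and their median log2 ratio was 1.45 against 1.58 and 1.27. Macrophage markers summed lowest on both scales, 3271 normalized units against 8796 and 6900 and 7918 units of Cy5 minus background against 122258 and 37835, with a median log2 ratio of 0.80 against 0.86 and 0.64. The part of these in the values of the 10 genes was not tested.

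Blood of day 10 against blood of day 0 is not the comparison by which the genes were chosen, but it shares the day 10 Blood arrays with that choice. A low value in day 10 Blood widens the difference of TIC from it, so the choice of Nme2 and Npm1 favours a fall here. No member passed limma's adjusted threshold of 0.05 here, and 0.0% of all genes did. By the unadjusted p 3 members, Nme2, Fbl and Npm1, were under 0.05, among 2104 of all 14253 genes. Nme2 was 1.30 lower on the log2 scale at day 10 (-1.30 ± 0.20, limma, adjusted p = 0.0659), lower in 3 of 3 mice by 0.96, 1.55 and 1.41. Fbl differed by -0.89 ± 0.22 (limma, adjusted p = 0.129) and Npm1 by -0.95 ± 0.34 (limma, adjusted p = 0.251), both below 0 in 3 of 3 mice. The second Npm1 probe differed by -0.61, with an unadjusted p of 0.167 by limma.

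These 3 genes and Ncl (-0.53 ± 0.56) had every day 10 value below every day 0 value, 4 of 10 members, where 17.2% of all genes lay wholly lower and 15.7% wholly higher. Among these 4 are Nme2 and Npm1, whose choice favours this direction. For Ncl it held on the brightest probe only. Its other probes differed by -0.27, -0.08 and 0.11, and on each of them the bloods overlapped. The other 6 genes differed by -0.11 to 0.25 and their bloods overlapped; 4 of them, Dkc1, Nolc1, Gnl3 and Myc, had no day 10 Blood array well above background. The median over the 10 genes was -0.10 and over all genes -0.01.

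How firm the Nme2 value is depended on the arrays that set the error. Its call passed in 6 other settings, among them the fit of the 2 blood groups alone (limma, adjusted p = 0.026), where 2.6% of all genes were called lower, and the fit without the TIC array of mouse 833 (limma, adjusted p = 0.0131), in which 4 members were called lower and 3.68% of all genes were. With slide as a block it was -1.19 with an adjusted p of 0.683 by limma. This value is the difference within the slide that held all day 10 Blood arrays and the day 0 Blood array of mouse 834. It therefore rests on 1 day 0 Blood array. The same difference was -1.24 for Npm1 and -0.68 for Fbl. The share of spots above background differed between these groups, as given above, and its part in these values was not tested.

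**Figure D4:**
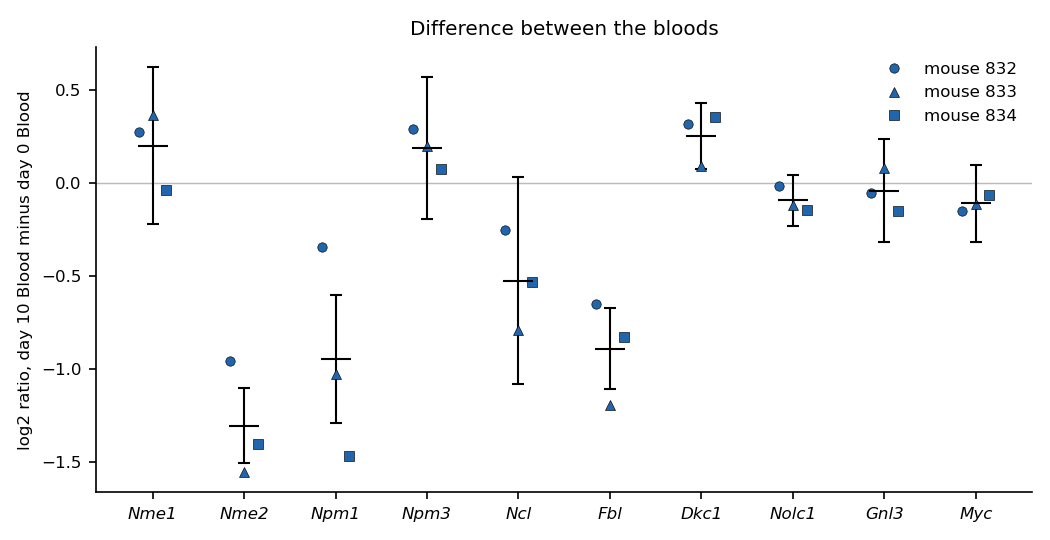
Log2 ratio in day 10 Blood minus that in day 0 Blood for the 10 genes, with a bar at the mean difference, error bars of ± 1 SE from the limma fit to all 9 arrays, and 1 point per mouse. Each gene is shown by the probe used for it. By that probe Nme2, Npm1, Ncl and Fbl lie below 0 in every mouse, which other Ncl probes do not share. The other genes have means between -0.11 and 0.25, and no gene passed the adjusted threshold.

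The rest of the pathway was read from a list of 104 ribosome biogenesis genes without members, of which 100 were measured. In TIC 74 were higher and 1 lower than in day 10 Blood by limma with Benjamini-Hochberg adjustment, where 34.4% of all genes were higher and 33.1% lower. Against day 0 Blood 73 were higher and 1 lower, where 31.7% and 33.6% of all genes were. The list's median differences were 0.77 and 0.70. Between the bloods 0 of 100 passed limma's adjusted threshold, and 8 had an unadjusted p under 0.05 by limma, where 2104 of all 14253 genes did. The differences were below 0 for 80 genes and above 0 for 20, with a median of -0.08, where that of all genes was -0.01. No day 10 Blood array was well above background for 67 of the 100 and no day 0 Blood array for 24. Many of these signs were therefore read near background. The smallest p-values belonged to Ebna1bp2, which differed by -0.47 ± 0.11 (limma, adjusted p = 0.127), Nop56 (-0.54 ± 0.16), Bop1 (0.27 ± 0.10) and Nat10 (-0.27 ± 0.10), with second probes of -0.12 for Ebna1bp2 and -0.04 for Nop56; Bop1 turned below 0 with median centring, the deposited ratio and Agilent's processed signals.

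By step of the pathway, the call against day 10 Blood was higher for 9 of 15 RNA polymerase I genes, 9 of 10 snoRNP genes, 26 of 35 genes of the small subunit processome and 30 of 40 genes of large subunit assembly. Polr1d, a subunit shared by RNA polymerases I and III, had log2 ratios of 3.09, 1.57 and 3.15 in TIC, against -0.27, -0.16 and 0.00 in day 10 Blood, a difference of 2.74 ± 0.38 (limma, adjusted p = 0.000275), while its second probe differed by 1.14. Taf1d, a subunit of the promoter factor SL1, was also called higher but had no day 10 Blood array well above background; against day 0 Blood it differed by 1.66 ± 0.42 (limma, adjusted p = 0.00828), a call lost with slide as a block, where it differed by 1.30.

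The snoRNP genes had the largest median of the 4 lists, 1.26 against day 10 Blood. Nop10, a small core protein of the particles that hold Dkc1, differed by 2.81 ± 0.47 (limma, adjusted p = 0.000812), and Nop58, a core protein of those that hold Fbl, by 2.57 ± 0.19 (limma, adjusted p = 8.2e-06). In the small subunit processome Utp11 differed by 2.57 ± 0.18 and Pno1 by 2.57 ± 0.45. In large subunit assembly Nip7 differed by 3.08 ± 0.44 and Brix1, dim in day 10 Blood, by 2.92 ± 0.42 from day 0 Blood, with 0.93 on its second probe. Of the 3 day 10 Blood arrays, 1 was well above background for Polr1d, Nop58 and Pno1 and 2 for Nop10, Utp11 and Nip7. For Polr1d, Nop10, Pno1 and Nip7 the call against day 10 Blood was lost with slide as a block, where the differences were 2.18, 2.13, 2.15 and 2.51. In that fit 28 of the 100 genes were called higher, and 10.5% of all genes were.

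Noc4l, a small subunit processome gene, was the 1 gene called lower. Its log2 ratios were -3.43, -2.94 and -3.06 in TIC, against -0.24, -0.29 and 0.32 in day 10 Blood and -0.33, -1.33 and -0.50 in day 0 Blood. It differed by -3.08 ± 0.28 from day 10 Blood (limma, adjusted p = 2.36e-05) with the loess ratio and by 1.18 with median centring, where the median of all genes was 1.38.

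Many of these genes were dim in blood: 67 of the 100 had no day 10 Blood array well above background. Among the 33 measured in both groups 25 were higher in TIC, 75.8%, where 21.5% of all such genes were. Against day 0 Blood the share was 54 of 76, 71.1%, where 23.8% of all genes measured in both groups were higher. The split by background was made after the first counts had been seen.

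**Figure D5:**
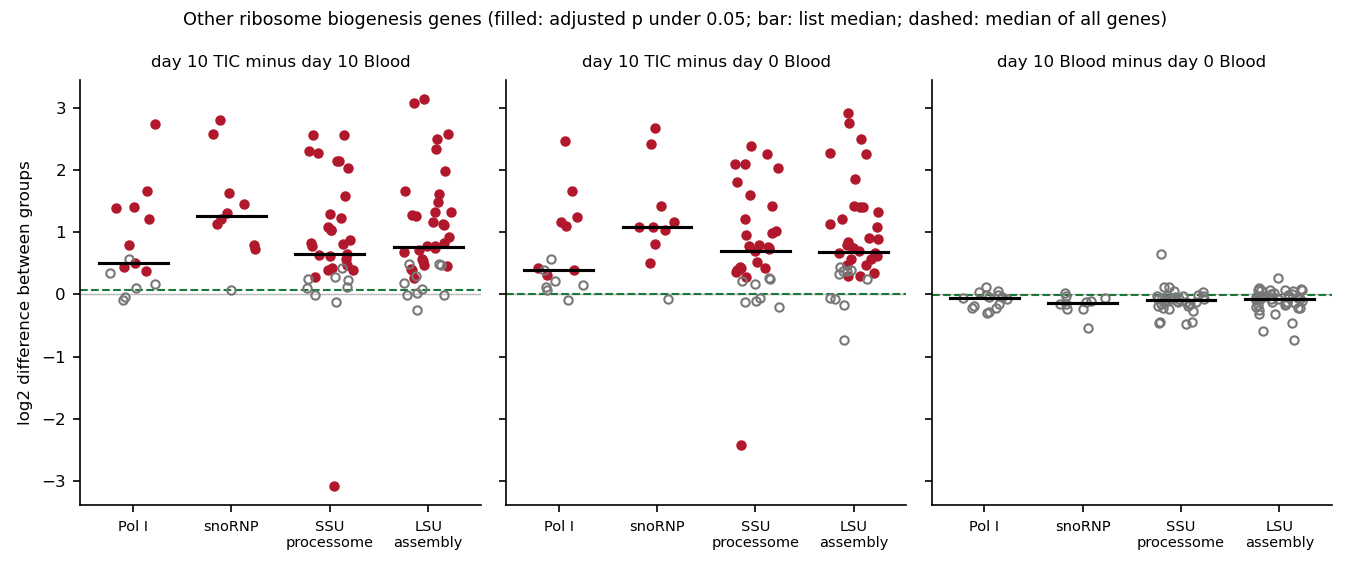
Log2 difference between groups for the measured genes of 4 ribosome biogenesis lists (15, 10, 35 and 40 genes), filled where the limma adjusted p is under 0.05, with a bar at the list median and a dashed line at the median of all 14253 genes. In the left and middle panels most genes lie above 0 and Noc4l alone is called below it, and in the panel of the bloods no gene is called.

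Of 11 measured genes of the Myc and Max network, 2 were higher and 7 lower in TIC than in day 10 Blood by limma with Benjamini-Hochberg adjustment, where 34.4% of all genes were higher and 33.1% lower. The list holds partners and antagonists of Myc, and also relatives of Myc and Max such as Mycn and Mlx. Against day 0 Blood 2 were higher and 8 lower, where 31.7% and 33.6% of all genes were. Mxi1, which competes with Myc for Max, had log2 ratios of -4.85, -4.35 and -4.42 in TIC, against -0.15, -0.52 and -0.31 in day 10 Blood and -0.64, -1.07 and -0.78 in day 0 Blood. It differed by -4.21 ± 0.18 from day 10 Blood (limma, adjusted p = 9.12e-07), and Mxd1, another antagonist, by -3.45 ± 0.34 (limma, adjusted p = 3.26e-05), with -1.55 on its second probe. Max itself, named here after its value was seen, differed by -2.87 ± 0.36. These counts depended on the scaling. With median centring 5 of the 11 were higher than in day 10 Blood and 0 lower, where 72.1% and 3.25% of all genes were, Mxi1 differed by -0.10 and Mxd1 by 0.13. With Agilent's processed signals 4 were lower, where 33.6% of all genes were, and with the deposited ratio or Cy5 alone 3 were, where 26.8% and 23.3% were. With slide as a block 0 were higher and 3 lower, where 10.5% and 19.5% of all genes were. No day 10 Blood array was well above background for 7 of the 11, among them Mlx and Mycn, which were called higher. No day 0 Blood array was for 3 of the 11. In TIC every gene of the list had such an array. For genes dim in blood the calls, lower ones included, therefore fix no size.

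Of 9 measured growth genes known to be regulated by Myc, 6 were higher and 2 lower in TIC than in day 10 Blood, where 34.4% and 33.1% of all genes were, with the same counts against day 0 Blood, where 31.7% and 33.6% were. No day 10 Blood array was well above background for 6 of the 9, while each had such a day 0 Blood array. Among all genes above background in TIC but on no day 10 Blood array, 49.0% were called higher. With slide as a block 3 of the 9 were higher than in day 10 Blood, where 10.5% of all genes were. Cdk4, a kinase of the G1 phase, had log2 ratios of 2.61, 2.13 and 2.68 in TIC, against -0.13, -0.10 and -0.11 in day 0 Blood, a difference of 2.59 ± 0.15 (limma, adjusted p = 3.56e-06); it was not above background in day 10 Blood. Pa2g4, a growth regulator of the nucleolus, differed by 2.34 ± 0.44 from day 0 Blood, with 0.43 on its second probe. Odc1, the entry enzyme of polyamine synthesis, differed by -6.43 ± 0.59 from day 10 Blood, with log2 ratios of -3.83, -1.27 and -3.63 in TIC, against 3.37, 3.27 and 3.91 in day 10 Blood and 2.24, 2.06 and 2.15 in day 0 Blood. Ccnd2, cyclin D2, differed by -1.72 ± 0.24 from day 10 Blood. With median centring Odc1 differed by -0.33 and Ccnd2 by 0.75, and neither stayed called lower.

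Markers of cells that the fraction or blood could hold also differed between TIC and day 10 Blood, where 34.4% of all genes were called higher and 33.1% lower. Of 16 hepatoma and liver genes 13 were higher and 2 lower in TIC than in day 10 Blood, and the summed normalized Cy5 signal of the 16 spanned 31853 to 69338 units over the TIC arrays. It spanned 1791 to 2024 units over the day 10 Blood arrays and 1720 to 1991 over those of day 0. Of 17 cell cycle genes 13 were higher and 2 lower. Of 10 macrophage genes 6 were higher and 0 lower, with sums of 3271 to 8796 units over the TIC arrays, 1281 to 1351 over the day 10 Blood arrays and 1148 to 1283 over those of day 0. All 10 red cell and all 9 B cell genes were lower, and 5 of 8 neutrophil genes were lower and 0 higher. No day 10 Blood array was well above background for 10 of the 16 hepatoma and liver genes. The same held for 10 of the 17 cell cycle genes and 6 of the 10 macrophage genes. How much of the values of the Nme and nucleolar genes in TIC came from each kind of cell was not tested. The summed signal of the 10 genes themselves spanned 27197 to 30716 units over the TIC arrays, 1953 to 2231 over the day 10 Blood arrays and 2715 to 4085 over those of day 0.

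Between the bloods no marker passed the adjusted threshold of limma, but 7 of 10 red cell markers had an unadjusted p under 0.05, all 10 with positive differences and a median of 1.73, and 6 of 9 B cell markers did, with a median of -0.81. The part of these marker shifts in the blood values of Nme2, Fbl, Npm1 and Ncl was not tested.

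The genes with the most similar pattern were found by the root mean square difference over the 9 arrays, each gene centred on its own mean, among 11934 genes with a symbol. The nearest to Nme2 was Npm1 at 0.35, followed by Rpl22l1 (0.45), Glrx3 (0.49), Avpi1 (0.50) and Mrpl13 (0.51). The nearest to Npm1 were Glrx3 (0.28), Hspe1 (0.33), Nme2 (0.35), Mrpl13 (0.37) and Ndufb2 (0.43). Fbl came at place 82 from Nme2, and Nme1, its neighbour on the chromosome, at place 621. Myc had none of the 10 genes near it; its nearest were Dst (0.09), Ank3 (0.11), Hyou1 (0.11), Zfp704 (0.13) and Tacc3 (0.13). Genes of small amplitude lie close together by this measure, which compares sizes as well as shapes.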

How the data were processed

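Each of the 9 two-colour Agilent arrays came as a scanner file with spot intensity in both channels and a log10 ratio of Cy5 over Cy3, both deposited by the authors. Feature Extraction is version 10.5.1.1 per the file headers and 9.1.3.1 per the submitters' processing notes; probe positions are on build mm8 per the file headers. From the mean and background intensity as deposited, normexp (offset 50), loess within arrays (span 0.3, 4 iterations) and averaging of a probe's spots gave the log2 ratios used here, computed with limma 3.58.1 in R 4.3.3; the deposited log10 ratio, turned to log2, served as an alternative; the series' value table holds the same log10 ratios, with a median of 0 on every array. Control spots, outlier flags and spots with uneven background were left out, which removed 213 of 41174 probes.

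Of the rest, 19995 probes with Cy5 well above background on at least 3 of the 9 arrays were kept, with no filter on their name. The brightest probe of each name stood for it (14253 names, called genes here, not all of them gene symbols). Probes were named by accession in a RefSeq table (23374), by current symbol (6733) or by synonym (2919), and otherwise kept the name in the file (8148). A model of the 3 groups was fitted to all 9 arrays (6 residual degrees of freedom), with Benjamini-Hochberg adjustment over all genes at 0.05, and checked on simulated data. The number of arrays limits the precision.

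The samples of a group are different mice by their numbers. The same 3 mice were sampled in each group, as the mouse numbers in the labels show, so the samples are paired by animal; deviations of the same mouse correlated at 0.19 to 0.35 between the bloods, at -0.06 to 0.06 between TIC and day 10 Blood and at -0.06 to -0.01 between TIC and day 0 Blood.

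The genes named are all 10 members; the 2 largest positive and 2 largest negative differences among called genes of each list between TIC and day 10 Blood; the 4 ribosome biogenesis genes with the smallest p between the bloods; and the 5 genes nearest to Nme2, Npm1 and Myc. Nme3, Npm2 and Max were named outside this rule. The members and lists were chosen with earlier results of these data known. The alternatives were Agilent's processed signals, all spots kept, median centring, the deposited ratio, Cy5 alone, other filters, other ways to combine probes, blocks for mouse and slide, fits of 2 groups, and each array left out.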

Additional observations from a re-analysis of the deposited data

How the results depend on the processing

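With mouse as a block, which follows the pairing, 72 ribosome biogenesis genes were higher in TIC than in day 10 Blood against 74 without it, 0 members were called between the bloods, and 32 of all genes were called there against 0; it changed no call of a member. Between the bloods 2 members were called with the deposited ratio and with the 2 groups alone, 1 with Cy5 alone and 1 of the 4 that were above background on all 9 arrays; leaving out 1 array gave 0 to 4, the 4 without the TIC array of mouse 833. All genes called there numbered 757, 747, 592, 147 of the 3897 above background on all 9 arrays and, without the TIC array of mouse 833, 1058, and 9 with Agilent's processed signals.

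Ribosome biogenesis genes higher in TIC than in day 10 Blood numbered 28 with slide as a block, 2 with mouse and slide, 3 of the 6 above background on all 9 arrays, 25 of the 33 above background in both groups (chosen after seeing the data), and 63 to 76 with 1 array left out. Of all 14253 genes, 1498 were higher with slide as a block, 214 with mouse and slide and 4052 to 5673 with 1 array left out. Of all genes above background on all 9 arrays 692 of 3897 were higher, and of those above it in both groups 21.5%. Against day 0 Blood the ribosome biogenesis genes higher numbered 26 with mouse and slide, 3 of 6 above background on all arrays, and 64 to 76 with 1 array left out. All genes higher there numbered 1472 of 14253, 621 of 3897 and 3621 to 5391 of 14253, in the same order. Ribosome biogenesis genes lower than in day 10 Blood numbered 2 with all spots kept or every probe a feature, 3 with the mean of probes, 0 with median centring or mouse and slide, and 1 to 2 with 1 array left out. Of all genes, 4347 of 14308 were lower with all spots kept and 4694 of 14253 with every probe a feature. With the mean of probes 4604 were, with median centring 463, with mouse and slide 896, and with 1 array left out 4274 to 5272. Ribosome biogenesis genes lower than in day 0 Blood numbered 2 with Agilent's signals, all spots, every probe or the mean of probes, 0 with median centring, and 1 to 3 with 1 array left out. All genes lower there numbered, in the same order, 4685, 4383, 4794, 4693, 816 and 4421 to 5407, of 14308 with all spots and of 14253 otherwise. Between the bloods 0 ribosome biogenesis genes were higher (0 to 0 with 1 array left out) and 0 lower, but 6 lower with the deposited ratio, 3 with Cy5 alone, 1 with the 2 groups alone and 0 to 4 with 1 array left out. All genes lower there numbered 616, 351, 371 and 0 to 524 of 14253, in the same order.

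Differences that changed sign between the bloods were those of Nme1 (-0.37 with median centring, -0.0071 with slide), Npm3 (-0.056 with Agilent's signals, -0.35 with median centring, -0.20 with the deposited ratio, -0.12 with Cy5 alone), Dkc1 (-0.018 with median centring), Gnl3 (0.18 with mouse and slide, -0.088 to 0.0087 with 1 array left out, above 0 without the day 10 Blood array of mouse 834), Myc (0.075 with every probe or the mean of probes) and Bop1 (-0.27 with Agilent's signals, -0.20 with median centring, -0.45 with the deposited ratio). Between TIC and day 10 Blood they were those of Noc4l (1.18), Mxd1 (0.13) and Ccnd2 (0.75) with median centring, Mycn (-0.0029) with no filter, and Dkc1, from -0.37 to 0.21 with the deposited ratio, 0.022 with slide, 0.025 with every probe or the mean of probes and 1.25 with median centring. Against day 0 Blood they were Noc4l (0.75) with median centring, Mycn (-0.011) with no filter, and Dkc1, from -0.11 to 0.76 with the deposited ratio, 0.37 with Agilent's signals, 0.26 with Cy5 alone, 0.12 with slide, 0.058 with mouse and slide, 0.085 with every probe or the mean of probes, 1.23 with median centring and 0.041 without the TIC array of mouse 832. The cause was not tested. Dim signal in day 10 Blood limits Dkc1, Nolc1, Gnl3 and Myc.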
